A study of Mus musculus with 407 samples.

Results

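The genes described here are 9 markers of B cells and plasma cells, taken by symbol from the 24458 gene symbols in the count tables: Cd79a, Cd79b, Ms4a1, Cd22, Blk, Pax5, Tnfrsf17, Mzb1 and Derl3. They are listed by name, with no threshold on a measured value, and each symbol stood on 1 row of every table. Their RNA was measured by strand-specific total RNA sequencing in libraries from C57BL/6J mice, each from 1 muscle: the diaphragm, a breathing muscle, or 1 of 3 hindlimb muscles, the gastrocnemius, the soleus and the tibialis anterior. Male and female mice were taken at 6 ages, the youngest 6 and the oldest 27 months, with steps at 12, 18, 21 and 24 months, and with 6 to 10 libraries in each of the 48 groups of muscle, sex and age. No group had received a treatment or carried an engineered allele, and all were housed under specific-pathogen-free conditions. The tissue of an age group was collected on the same day, so age and day of collection cannot be told apart. The sample numbers in the labels fall into runs whose meaning is not given, 3 in the diaphragm (named A, B and C here) and 2 in each limb muscle, with separate numbers for each muscle. Muscles of the same mouse cannot be matched from the labels.

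B cells carry an antibody as their antigen receptor, and the receptor signals through the paired proteins CD79A and CD79B. After activation some B cells become plasma cells, which give up most B cell surface proteins, widen the endoplasmic reticulum and secrete antibody. In healthy skeletal muscle the resident leukocytes are mostly macrophages, B cells are few, and a bulk library also holds the vessels, connective tissue and lymphoid tissue cut out with the muscle. In bulk RNA, more cells of a type and more RNA per cell cannot be told apart.

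By role, Cd79a (chr7:24897497-24901858) and Cd79b (chr11:106311341-106314562) encode the signalling pair of the receptor. Ms4a1 (chr19:11249679-11266149) encodes CD20, a B cell membrane protein, and Cd22 (chr7:30865404-30880342) an inhibitory coreceptor that binds sialic acid. Blk (chr14:63372837-63417187) is a Src family kinase downstream of the receptor, and Pax5 (chr4:44524748-44710694) is the transcription factor that keeps B cell identity and is shut off in plasma cells. Tnfrsf17 (chr16:11313232-11320074) encodes BCMA, a survival receptor of plasma cells. Mzb1, an endoplasmic reticulum chaperone partner in antibody assembly, and Derl3 (chr10:75893398-75895941), which helps clear misfolded proteins from that compartment, are high in antibody-secreting cells. Positions are those of RefSeq on GRCm38.p6, the assembly that mm10 stands for. Pax5, Blk and Ms4a1 overlap other annotated genes (for Pax5, Mir5120 among them), so a share of their reads could belong to a neighbour.

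RefSeq gave a promoter for 5 of the 9 genes, and 3 are printed for what they show of the roles. They are a receptor subunit (Cd79a), the member called with age in most combinations of muscle and sex (Cd22) and a gene of the secretory apparatus (Derl3). Each line holds the 250 bases before the annotated start, 5′ to 3′ on the strand of the gene, and capitals mark matches on either strand to the letters searched. The start used for Cd22 lies inside the span given above for the gene.
Cd79a, chr7:24897247-24897496, + strand: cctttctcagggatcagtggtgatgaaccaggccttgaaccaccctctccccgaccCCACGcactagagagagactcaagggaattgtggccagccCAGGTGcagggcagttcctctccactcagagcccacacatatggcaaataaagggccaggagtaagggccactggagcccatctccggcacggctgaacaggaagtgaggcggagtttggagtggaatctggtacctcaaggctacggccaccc
Cd22, chr7:30879029-30879278, minus strand: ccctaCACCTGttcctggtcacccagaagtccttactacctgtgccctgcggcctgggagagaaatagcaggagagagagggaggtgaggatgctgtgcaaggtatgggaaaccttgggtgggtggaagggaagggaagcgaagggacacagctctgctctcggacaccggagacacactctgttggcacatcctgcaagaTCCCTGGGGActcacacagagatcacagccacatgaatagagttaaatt
Derl3, chr10:75893148-75893397, + strand: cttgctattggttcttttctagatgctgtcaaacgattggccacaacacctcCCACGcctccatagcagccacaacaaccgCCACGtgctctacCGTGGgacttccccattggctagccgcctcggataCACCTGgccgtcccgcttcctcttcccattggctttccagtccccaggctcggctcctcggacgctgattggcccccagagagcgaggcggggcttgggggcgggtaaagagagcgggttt
The motifs were the octamer ATGCAAAT, the early B cell factor site (TCCC and GGGA with 2 bases between), the Ets site GAGGAAGT, the E-box CAGGTG and the endoplasmic reticulum stress core CCACG with its longer form GACGTGG, searched from 250 bases before to 50 after the start. The Derl3 promoter held CCACG on 3 occasions, at -198, -169 and -156, and 3.07% of the 32544 promoters of this length held it at least 3 times. In Cd79a CCACG stood once at -194, and 33.0% of promoters held at least 1 copy. The early B cell factor letters stood in Cd22 at -49 as TCCCTGGGGA, against 0.913% of promoters. The E-box, found in 20.3% of promoters, stood in Cd79a at -154, in Cd22 at -245 and in Derl3 at -121. No searched motif stood in the windows of Pax5 and Tnfrsf17. These matches describe letters and not bound sites.

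The median level of each of the 9 genes was higher in the diaphragm than in the limb muscles, in both sexes. Levels are in CPM, the counts of a gene scaled to a common number of counts on all genes, with library sizes adjusted by edgeR's TMM factors. Added over the 9 genes, the level was 1.3 to 439 CPM in the 98 diaphragm libraries, with a median of 19.4. Its median was 0.685 CPM over 104 libraries of the gastrocnemius, 0.818 over 103 of the soleus and 0.761 over 102 of the tibialis anterior. The highest limb library, a female gastrocnemius at 24 months (replicate 3), reached 17.9 CPM, and 51 of 98 diaphragm libraries lay above it. The ranges overlapped at the low end, since 64 of 309 limb libraries lay above the lowest diaphragm library.

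Both genes of the receptor pair were higher in the diaphragm. Cd79a ranged from 0.163 to 55.5 CPM in female diaphragm (median 4.55) and from 0.0865 to 22.2 in male diaphragm (median 2.17). In the limb muscles its median was 0.0867 CPM and its highest library 2.53. Of the 98 diaphragm libraries, 49 lay above every limb library. Cd79b had a median of 2.82 CPM in the diaphragm and 0.172 in the limbs, where it was the member with fewest libraries at 0 (10 of 309). In Cd79b, 55 diaphragm libraries lay above the highest limb library.

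Ms4a1 showed the widest gap between diaphragm and limb. It ranged from 0.157 to 156 CPM in female diaphragm (median 9.03) and from 0.0433 to 37.9 in male diaphragm (median 4.22), against a limb median of 0.11 and a limb maximum of 2.64. The median in the diaphragm was 48.4 times that in the limbs, and 65 of 98 diaphragm libraries lay above all limb libraries. Cd22 had a median of 8.07 CPM in female and 3.51 in male diaphragm, with 0.161 in the limbs and a limb maximum of 7.05. For Blk, with medians of 1.28 and 0.0415 CPM, 67 diaphragm libraries stood above the limb maximum of 0.787, the clearest separation among the 9 genes. Pax5 had a median of 0.771 CPM in the diaphragm and 0.0401 in the limbs, and was listed at 0 in 5 of 98 diaphragm and 72 of 309 limb libraries.

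Judged by the highest limb library, the 3 plasma cell genes overlapped more between diaphragm and limb. Mzb1 had a median of 0.681 CPM in the diaphragm and 0.0417 in the limbs, and 29 diaphragm libraries lay above the highest limb library. Derl3 had medians of 0.877 and 0.0393 CPM, with 30 libraries above the limb maximum of 2.22. For Mzb1 and Derl3 this maximum was the same library, female tibialis anterior at 21 months (replicate 0). Above the 95th percentile of the limb libraries lay 82 diaphragm libraries for Derl3, 77 for Mzb1 and 58 for Tnfrsf17. For Pax5 there were 80 and for the other B cell genes 86 to 94, so on this measure Derl3 did not stand apart. Tnfrsf17 had a median of 0.105 CPM, which is 8 counts, in the diaphragm and 0.015, or 1 count, in the limbs. Tnfrsf17 had no count in 10 of 98 diaphragm and 126 of 309 limb libraries, so its limb values lie at the limit of the depth. Per kilobase of exon, the only scale on which genes are compared here, the median in the diaphragm was highest for Cd79b (1.97 CPM per kb), Cd79a (1.82) and Ms4a1 (1.72). It was 0.959 for Cd22, 0.754 for Mzb1, 0.664 for Derl3 and 0.552 for Blk, and lowest for Tnfrsf17 (0.129) and Pax5 (0.0963).

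**Figure D1:**
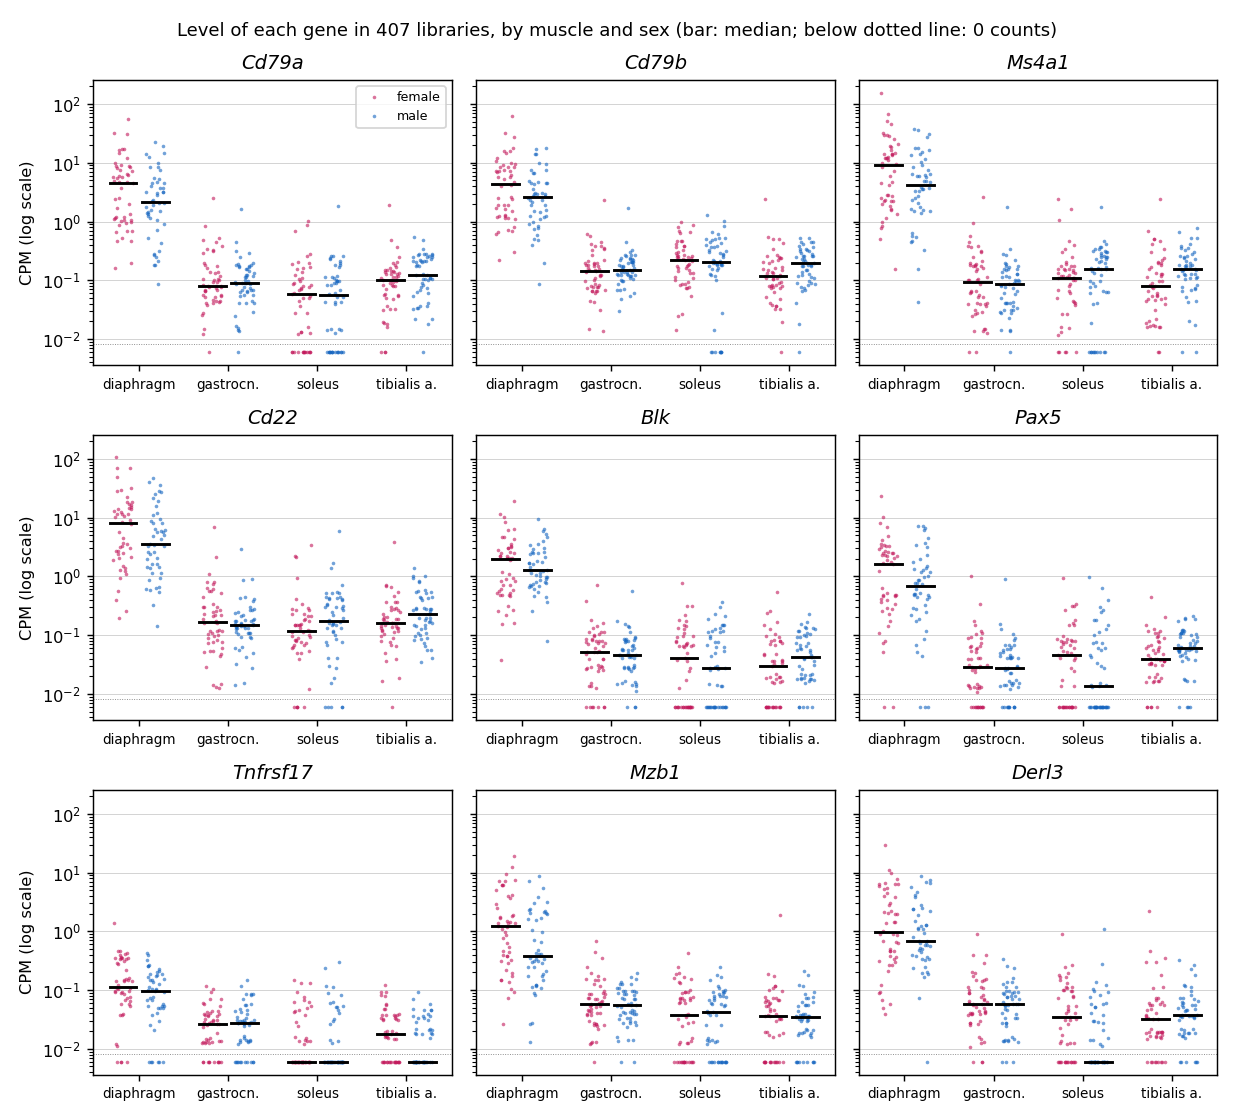
Level of each of the 9 genes in all libraries, in CPM on a log axis, by muscle and sex. Each point is 1 library, and libraries with no count are drawn below the dotted line. The diaphragm points lie mostly above the limb points for each gene, with medians of 5.3 against 0.11 CPM for Ms4a1, and they spread widely, from 0.0433 to 156 CPM for Ms4a1.

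The test of these differences used edgeR's quasi-likelihood fit of the 4 muscles within a sex, averaged over ages, with Benjamini-Hochberg adjustment over all genes tested. A gene was called at an adjusted p below 0.05 and a fold change above 1.5. Cd79a, Cd79b, Ms4a1 and Cd22, which passed the filter on low counts in every muscle and sex on its own, were called higher in the diaphragm in each of the 6 comparisons with a limb muscle, by 3.60 (Cd79b, male soleus) to 6.36 (Ms4a1, female tibialis anterior) on the log2 scale. The other 5 genes failed that filter in some limb combinations (Tnfrsf17 in all 6) and were tested there only through the diaphragm libraries, where they are high, so their calls are no support. The diaphragm differed from the limb muscles in many genes: 31.7% of all genes tested were called higher than in the gastrocnemius in females, 27.3% than in the soleus and 36.1% than in the tibialis anterior. In males these shares were 29.2, 24.4 and 31.8%. For Ms4a1 the difference from the gastrocnemius was 6.35 ± 0.34 (log2, standard error; adjusted p = 3.46e-43) in females and 5.74 ± 0.32 (2.08e-41) in males.

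As a description, the median log2 difference over the 9 genes was 4.23 to 5.28 in the 6 comparisons, against -0.02 to 0.15 over all genes. Scaling by relative log expression moved the median of all genes by 0.14 to 0.24 in the 3 male comparisons, and relative to that median the lowest of the 9 genes kept a difference of 1.66, 2.27 and 2.46. Among the other gene lists, 20 further B cell surface and signalling genes had medians of 3.25 to 4.57. The 14 T cell genes had medians of 3.20 to 4.54. Of the B cell genes 2, 4 and 2 had no count in most libraries of the gastrocnemius, soleus and tibialis anterior. For the T cell genes these numbers were 0, 3 and 1. Such genes had counts mainly in the diaphragm libraries, so calls are not counted for either list. The 8 pan-leukocyte genes had medians of 2.05 to 3.42, and 12 macrophage genes, all called, of 1.25 to 2.24. The 9 genes of lymph node vessels and stroma had medians of 2.69 to 3.83. Muscle fibre genes were lower in the diaphragm, where their sum had a median of 86912 CPM against 191940 to 284509 in the limb muscles.

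**Figure D2:**
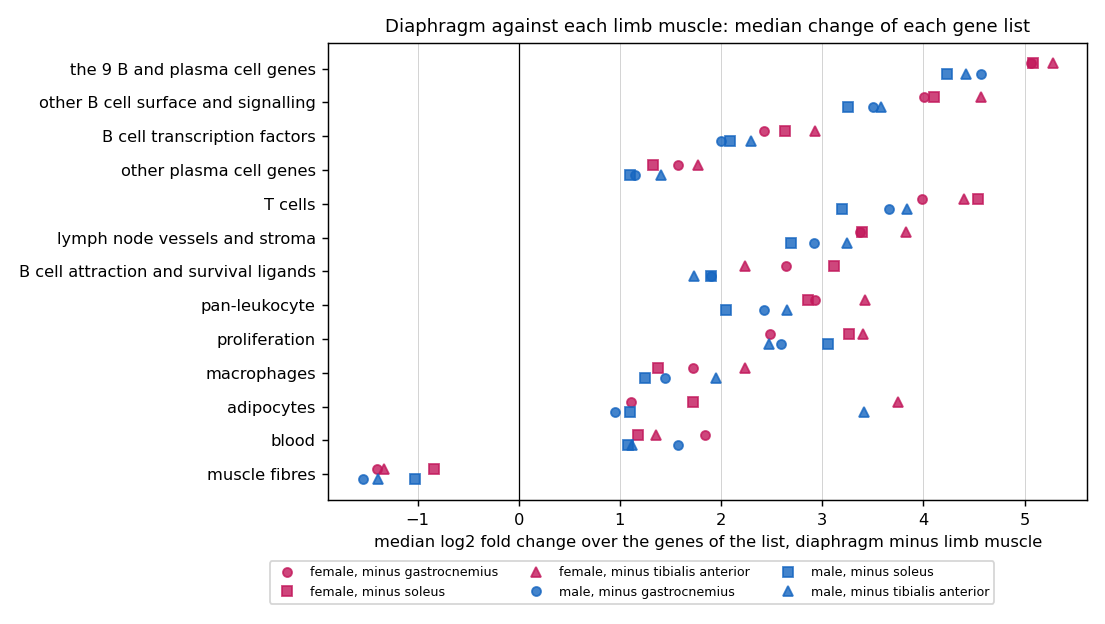
Median log2 fold change of each gene list, diaphragm minus each limb muscle, with colour for sex and symbol for the limb muscle. The 9 B and plasma cell genes lie at 4.23 to 5.28, T cells at 3.20 to 4.54, a range that overlaps with theirs, and macrophages at 1.25 to 2.24, and the muscle fibre genes lie below 0.

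Genes of lymphoid tissue were read beside these levels. The high endothelial venule genes Glycam1 and Madcam1, which mark the vessels through which lymphocytes enter lymph nodes, had no count in 48 and 81 of 98 diaphragm libraries. The stromal chemokines were higher in the diaphragm: Ccl21a, the lymphatic vessel chemokine, had a median of 57.5 CPM against 3.34 to 5.4 in the limb muscles, and Cxcl13, which attracts B cells, 8.28 against 0.451 to 0.718. Genes of thymocytes and B cell precursors, such as Rag1, were near 0, with a summed median of 0.0448 CPM in the diaphragm. The part of attached lymphoid tissue in the level of the 9 genes was not tested.

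Among the 3 limb muscles the order of the levels was not resolved. Over 6 pairs of limb muscles and the 4 genes with enough counts in each muscle alone, 1 difference was called: Cd22 was lower in male gastrocnemius than in male soleus by -0.72 ± 0.32 (adjusted p = 0.0316), where 30.9% of all genes were called. In the other male pairs 14.2% of genes (gastrocnemius minus tibialis anterior) and 32.8% (soleus minus tibialis anterior) were called, and in the female pairs 29.3, 15.0 and 32.6%. This call was lost, at -0.26 and adjusted p = 0.442, when 1 soleus library rich in thymocyte transcripts and 2 diaphragm libraries rich in liver transcripts were left out, and the difference had the opposite sign (0.05) with limma-voom. In that soleus library (18 months, replicate 1) Rag1 stood at 83.5 CPM and Cd22 at 6.02. The call was also lost (-0.61, 0.0738) without the 8 libraries with the fewest genes detected, all of the soleus and 7 of them male, and in that fit Cd79b (-0.72, 0.00516) and Ms4a1 (-0.83, 0.0133) were called lower in male gastrocnemius than soleus.

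Between the sexes 1 of the 9 genes, Mzb1 in the diaphragm, was called different. The summed level had a median of 35.5 CPM in 50 female and 17.1 in 48 male diaphragm libraries, with ranges (1.3 to 439 and 1.33 to 150) that overlapped. The log2 difference between females and males, averaged over ages, lay above 0 for all 9 genes, from 0.41 for Blk to 1.08 for Mzb1. Mzb1 had medians of 1.22 CPM in female and 0.378 in male diaphragm (1.08 ± 0.38, adjusted p = 0.0328 by edgeR), where 5.18% of all genes were called. For Cd79b the adjusted p was 0.0515 and for Ms4a1 0.0544. In the diaphragm 6 of the 9 genes had an unadjusted p below 0.05 between the sexes by edgeR. The call of Mzb1 was lost with limma-voom and with Bonferroni adjustment. In the gastrocnemius, soleus and tibialis anterior 7, 8 and 5 of the 9 genes could be tested, and none was called between the sexes by edgeR, where 8.17, 3.97 and 5.27% of all genes were, and 1, 0 and 0 of them had an unadjusted p below 0.05. No member tested had a called difference between the sexes in the change from 6 to 27 months in any muscle, by edgeR's test of the interaction, and none had an unadjusted p below 0.05 (0 of 9 tested in the diaphragm). Of all genes this test called 0.0% in the diaphragm and, in the limb muscles in the order above, 1.6, 0.855 and 1.73%.

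Within the diaphragm, libraries of the same age and sex spread widely. In female diaphragm the median of the summed level was 24.4 CPM at 6 months, 27.3 at 12, 68.6 at 18, 8.99 at 21, 13.3 at 24 and 61.8 at 27 months. At 27 months the 10 female libraries ran from 10.1 to 439 CPM and at 24 months from 1.3 to 239. In male diaphragm the medians were 8.2, 16.1, 8.5, 22.2, 15.1 and 46.0 CPM at the 6 ages. In both sexes the median was higher at 27 than at 6 months.

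**Figure D3:**
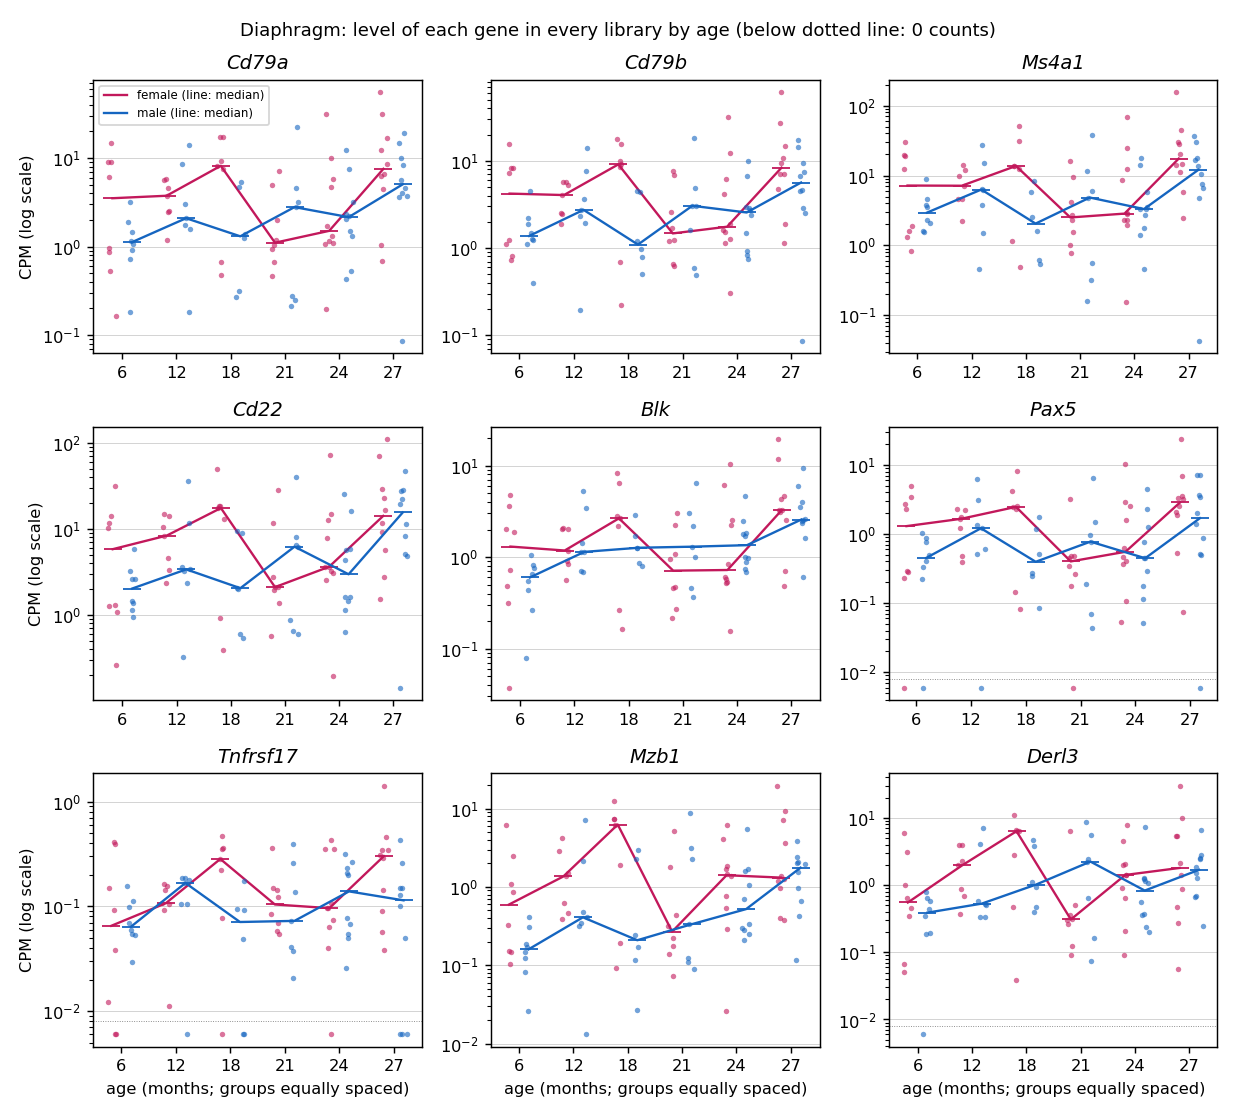
Level of each of the 9 genes in the 98 diaphragm libraries by age (months, groups equally spaced), in CPM on a log axis, with females and males in separate colours. Points are libraries, lines join the group medians and libraries with no count lie below the dotted line. The points of neighbouring ages overlap in both sexes, and the highest Ms4a1 point is a female library at 27 months (156 CPM).

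In female diaphragm none of the 9 genes was called at any older age by edgeR, where 2.95% of all genes were called at 1 or more ages. At 27 months the log2 differences from 6 months were 1.32 to 1.93 with standard errors of 0.72 to 0.95, and the adjusted p-values lay between 0.298 and 0.504. Over the 5 older ages 2 of the 9 genes had an unadjusted p below 0.05, Blk (0.034) and Derl3 (0.0468) at 27 months. Cd79a had 0.163, 3.51 and 14.7 CPM (lowest, median and highest) at 6 months and 0.687, 7.55 and 55.5 at 27 months, so 8 of 10 older libraries lay above the younger median and 3 above the younger maximum.

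In male diaphragm 5 of the 9 genes were called at some older age, where 11.0% of all genes were. At 27 months (5.6% of all genes called) the receptor subunit Cd79a rose from 0.183, 1.12 and 3.17 CPM to 0.0865, 5.06 and 19.4 (2.48 ± 0.82, adjusted p = 0.0491). Cd22 rose from 0.947, 2.03 and 5.8 to 0.144, 15.5 and 46.8 CPM (2.85 ± 0.87, 0.0336). In 9 of 10 older libraries Cd79a lay above the 6-month maximum, and in 7 Cd22 did. The exception for Cd79a was replicate 1, with the lowest summed level of any male diaphragm library (1.33 CPM).

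The kinase Blk had the lowest adjusted p of the 9 genes in this muscle. Its level was 0.0786, 0.6 and 1.06 CPM at 6 months, 0.371, 1.3 and 6.51 at 21 and 0.606, 2.57 and 9.47 at 27 months, where 9 of 10 libraries lay above the 6-month maximum. The log2 change was 1.85 ± 0.54 (adjusted p = 0.0253) at 21 months, where 7.38% of all genes were called, and 2.58 ± 0.53 (0.00278) at 27 months. It was the only one of the 5 genes for which a line on the logarithm of age had a BIC, a penalised measure of misfit, lower than that of a constant by more than 6, the margin the study used (-12.6; Mzb1 had -5.2, Derl3 -3.9, and Cd22 and Cd79a lay above 0). In this muscle 35.5% of the called genes passed this margin with a line or a logistic curve.

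Of the plasma cell genes, Mzb1 rose from 0.0262, 0.159 and 0.41 CPM at 6 months to 0.115, 1.76 and 3.86 at 27 months (3.10 ± 0.96, adjusted p = 0.0353), with 9 of 10 libraries above the 6-month maximum. At 21 months it had 0.0908, 0.334 and 8.69 CPM (3.48 ± 1.00, 0.0224), and 3 of 7 libraries lay above the 6-month maximum. Derl3 rose from 0, 0.389 and 0.788 to 0.0743, 2.24 and 8.76 CPM at 21 months (2.82 ± 0.86, 0.0293). It was not called at 27 months (2.35 ± 0.81, 0.0578). Tnfrsf17 had medians of 0.0638 and 0.114 CPM at 6 and 27 months (0.68 ± 0.73, 0.606).

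Several of these male calls were lost without single libraries or once the fit had a term for the run. Without replicate 4 at 21 months, which had a summed level of 150 CPM, the calls at that age were lost for Mzb1 (2.43, adjusted p = 0.113), Blk (1.24, 0.144) and Derl3 (2.23, 0.0988), and without replicate 5 at 27 months that of Cd79a was lost (2.19, 0.091). Of the 8 male diaphragm libraries at 6 months 6 were in run B, and of the 10 at 27 months 6 were in run A, 3 in C and 1 in B. With the run as a term the 27-month changes were 1.96 for Cd22, 1.88 for Cd79a, 2.32 for Mzb1 and 2.20 for Blk, with adjusted p-values of 0.435, 0.485, 0.388 and 0.0931. Within run A the summed level had a median of 10.4 CPM in 2 libraries at 6 months and 28.9 (1.33 to 121) in 6 at 27 months. Run C, absent at 6 months, had a median of 75.7 CPM (70.6 to 122) in 3 libraries at 27 months. In run B the median was 7.31 CPM in 6 libraries at 6 months, and the 1 library at 27 months had 55.5. In 2 libraries of male diaphragm, 21 months replicate 3 and 27 months replicate 6, 8 liver genes summed to 26948 and 10628 CPM. Leaving them out gave Cd79a an adjusted p of 0.0272 at 27 months and Derl3 0.0549 at 21 months.

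Other immune genes moved at the same ages in male diaphragm. At 27 months 13 of 14 T cell genes were called higher (median log2 change 2.62), with 7 of 8 pan-leukocyte genes (1.47), 4 of 12 macrophage genes (0.73), 6 of 20 further B cell surface genes (2.05) and 4 of 10 B cell transcription factors (1.65), beside 4 of the 9 genes (2.36) and a median of 0.02 over all genes. Cd72, a B cell coreceptor, rose by 3.40 (adjusted p = 0.0124), the B cell genes Spib by 2.66, Fcrla by 2.64 and Fcmr by 2.50, and the transcription factor Ikzf3 by 2.39. Of 6 proliferation genes 3 were called (1.82). The part of these other cell types in the change of the 9 genes was not tested.

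**Figure D4:**
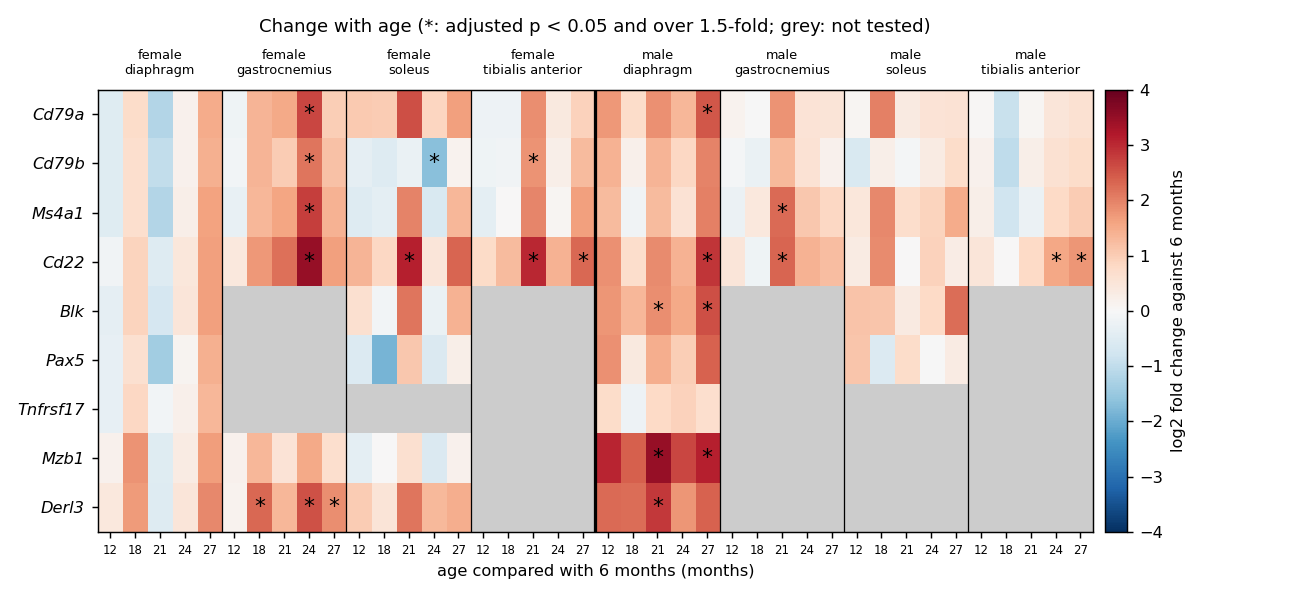
Log2 fold change from 6 months for each of the 9 genes at each older age, in each muscle and sex, on a colour scale, with called changes marked by a star and genes that were not tested in grey. Called rises stand in male diaphragm at 21 and 27 months and in scattered limb groups. Cd22 is called in most of these limb groups, and Cd79a, Cd79b, Ms4a1 and Derl3 in fewer of them. The 1 called fall is Cd79b in female soleus at 24 months (-1.68).

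In the limb muscles 4 to 8 of the 9 genes had enough counts to be tested, and Cd79a, Cd79b, Ms4a1 and Cd22 were tested in all 6 combinations of muscle and sex. The median limb library held 3 counts of Pax5, 3 of Blk and 1 of Tnfrsf17. Cd22 was the member called in most places: in 5 of these 6 combinations, and in male diaphragm. Male soleus had no call among 6 genes tested by edgeR, where 2.85% of all genes were called, and 2 of the 6 had an unadjusted p below 0.05 at some age. In 7 male soleus libraries 13270 to 14606 genes were detected, against a median of 16129 in this muscle, and 5 to 9 of the 9 genes had no count. Without them no gene was called either.

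In female tibialis anterior 2 of 4 genes tested were called at some age (9.25% of all genes), in female soleus 2 of 8 (8.52%), in male gastrocnemius 2 of 4 (8.06%) and in male tibialis anterior 1 of 4 (8.53%). The female gastrocnemius had most calls, with 5 of 6 genes tested, where 9.44% of all genes were called at some age. At 24 months (4.49%) Cd22 rose from 0.0126, 0.0851 and 0.271 CPM to 0.0613, 0.235 and 7.05 (3.48 ± 0.85, adjusted p = 0.00201). Cd79a, Cd79b, Ms4a1 and Derl3 rose by 2.66 ± 0.72 (0.0053), 2.15 ± 0.59 (0.00607), 2.75 ± 0.80 (0.0102) and 2.54 ± 0.69 (0.00472). Between 4 and 7 of 10 libraries lay above the 6-month maximum. Replicate 3 carried much of this: without it the changes were 2.01 (0.0433) for Cd22, 1.53 (0.0844) for Cd79a, 1.09 (0.121) for Cd79b, 1.55 (0.137) for Ms4a1 and 1.62 (0.058) for Derl3. In that library 20 further B cell genes summed to 32.7 CPM and T cell genes to 13.0, the highest of the gastrocnemius libraries, with muscle fibre genes at 234004 CPM.

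Derl3 rose in the female gastrocnemius at 2 more ages. Its level at 6 months was 0, 0.0344 and 0.0585 CPM, in every library below what the filter on low counts asks for. Derl3 thus passed the filter in this muscle only through older libraries. Its calls here, at every age, and its age curve are descriptions and no support. The libraries of 18 months had 0.0278, 0.092 and 0.393 CPM (2.31 ± 0.72, adjusted p = 0.0224), and those of 27 months 0.0259, 0.105 and 0.196 (1.86 ± 0.70, 0.0346). At these ages 4.01 and 4.98% of all genes were called. The change at 18 months was 1.93 (0.086) without replicate 7, and that at 27 months was 1.81 (0.0475) without replicate 0. Derl3 in female gastrocnemius and Cd22 in female tibialis anterior were the other 2 of 17 combinations of gene, muscle and sex that passed the BIC margin for a line (-10.0 and -13.9). Of all called genes 53.4% in female gastrocnemius and 52.8% in female tibialis anterior passed it with a line or a logistic curve. Where members were called, this share ran from 35.5% (male diaphragm) to 62.7% (male gastrocnemius), so passing is no trait of the members.

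In the tibialis anterior Cd22 was called in both sexes at 27 months. In females it went from 0, 0.069 and 0.19 CPM to 0.0675, 0.364 and 0.706 (2.3 ± 0.66, adjusted p = 0.0072), with 8 of 10 libraries above the 6-month maximum, where 7.01% of all genes were called. In males it went from 0.0552, 0.153 and 0.289 to 0.0343, 0.57 and 1.00 CPM (1.77 ± 0.52, 0.0119), with 7 of 10 above, where 4.1% were. Both kept their call without replicate 9 at that age (2.18, 0.0148 and 1.62, 0.0222). In males this library had the highest summed level of the group (3.53 CPM). In females it did not, since replicate 3 stood higher (2.59 CPM). With limma-voom the female call was kept (2.54, 0.0061) and the male one lost (1.25, 0.144), as it was within the larger run of sample numbers (1.28, 0.163).

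The other limb calls were lost without 1 library each. In female tibialis anterior at 21 months (3.08% of genes called), Cd22 at 3.00 ± 0.67 (adjusted p = 0.00135) and Cd79b at 1.81 ± 0.62 (0.0484) became 1.06 (0.205) and 0.06 (0.961) without replicate 0. In male gastrocnemius at 21 months (3.59%), Cd22 at 2.32 ± 0.62 (0.0102) and Ms4a1 at 2.25 ± 0.66 (0.0197) became 0.85 (0.371) and 0.65 (0.573) without replicate 4. In female soleus Cd22 at 21 months (5.63%; 3.11 ± 0.92, 0.0103) became 2.06 (0.0917) without replicate 0. In male tibialis anterior at 24 months (5.34%) Cd22 at 1.56 ± 0.52 (0.03) became 1.24 (0.0852) without replicate 9. The medians moved little in such groups, as for Cd22 in female soleus, at 0.0592 and 0.0739 CPM.

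The 1 called fall was Cd79b in female soleus. It had 0.0878, 0.221 and 0.879 CPM at 6 months and 0.025, 0.0832 and 0.288 at 24 months (-1.68 ± 0.54, adjusted p = 0.0178), where 5.35% of all genes were called. The groups overlapped, and without replicate 0 at 6 months the change was -1.46 (0.0568).

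**Figure D5:**
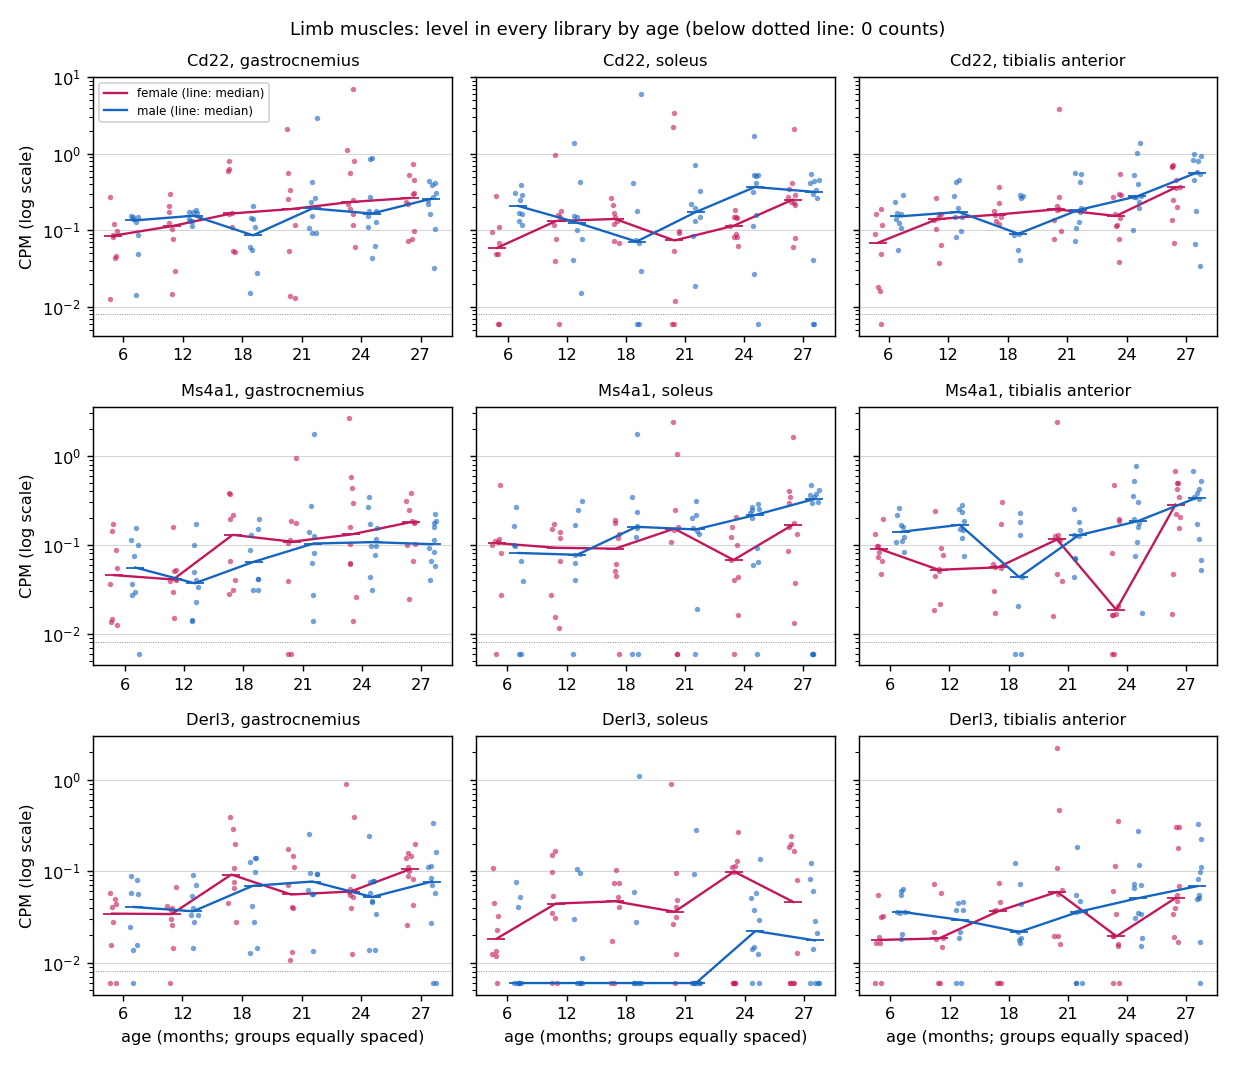
Levels of Cd22, Ms4a1 and Derl3 (rows) in the gastrocnemius, soleus and tibialis anterior (columns) by age in months, in CPM on a log axis, with colour for sex. Points are libraries, lines join the medians and libraries with no count lie below the dotted line. Single libraries stand far above their group, as for Cd22 at 7.05 CPM in female gastrocnemius at 24 months, where the median was 0.235.

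Whether the change with age differed between muscles was tested by the interaction of muscle and age at 27 months. Of Cd79a, Cd79b, Ms4a1 and Cd22, which had enough counts in each muscle alone, none was called in the 6 pairs of muscles in either sex by edgeR. With unadjusted p below 0.05 stood the male pairs of the diaphragm with the gastrocnemius for Cd79b (1.82 ± 0.83, p = 0.0306) and with the soleus for Cd22 (2.56 ± 0.99, p = 0.0101). Tnfrsf17 passed the threshold in females for the diaphragm against the soleus (5.07% of all genes called) and the gastrocnemius against the soleus (5.51%), but it failed the filter in both limb muscles alone and was tested there only through the diaphragm libraries, so no difference is read from it. In the other female pairs 0.57 to 7.57% of all genes were called (3.2, 4.32, 0.57 and 7.57%), and in the male pairs 3.44, 4.1, 1.59, 0.594, 0.0 and 0.323%. The Tnfrsf17 values rest on few counts: in the soleus 3 of 8 libraries at 6 months held 12, 11 and 4 counts and 1 of 10 at 27 months held 3. In the diaphragm Tnfrsf17 had a median of 0.0651 CPM at 6 and 0.302 at 27 months. Both calls were lost with limma-voom and with Bonferroni adjustment.

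Across diaphragm libraries the levels of the 9 genes varied together. With the mean of each muscle, sex and age group taken out of log2 CPM, Pearson's r over 98 diaphragm libraries was 0.97 for the receptor pair Cd79a and Cd79b, 0.96 for Cd79a and Cd22 and 0.90 for Cd79a and Blk. Mzb1 and Derl3 were at 0.81 with each other, and Tnfrsf17, with fewest counts, at 0.53 to 0.63 with the rest. In the 309 limb libraries the 36 pairs ran from 0.06 to 0.60. The values of a pair come from the same library with the same scaling factor, and the limb values rest on a few counts.

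The B cell members (the mean of Cd79a, Cd79b, Ms4a1, Cd22, Pax5 and Blk in log2 CPM) were, over the same 98 libraries, correlated at 0.94 with the 20 further B cell genes, 0.89 with the T cell and with the pan-leukocyte genes, 0.73 with proliferation genes, 0.62 with macrophage genes, 0.56 with 18 further plasma cell genes and 0.44 with lymph node stroma. They were at 0.2 with blood cell genes and -0.29 with muscle fibre genes. Among the genes most like the members over all libraries were Ikzf3 (r = 0.77), Pou2af1 (0.74), Fcmr (0.73), H2-Eb2 (0.73), Bank1 (0.72), H2-Ob (0.72), Cxcr5 (0.70), Btla (0.70) and Fcrl5 (0.70), measured against the mean of the 4 members tested in every muscle and sex.

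The balance of secretory to other members also varied between libraries. Mzb1 and Derl3 together made up a median of 5.39 to 18.9% of the counts on the 9 genes in male diaphragm across the 6 ages and 6.37 to 14.2% in female diaphragm, in both sexes highest at 18 months. Single libraries ran from 0.395 to 52.7%. The highest share was that of male diaphragm at 21 months, replicate 3, the library in which liver genes summed to 26948 CPM. Its Derl3 stood at 2.42 CPM and its Mzb1 at 0.0908, of a summed level of 4.78. In the other groups of sex and age no library was above 30.9%. The share was not tested.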

How the data were processed

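Total RNA of 4 muscles was sequenced from C57BL/6J mice of both sexes. The authors deposited 1 table of raw counts per gene for each library, made in ArrayStudio (version not given in the sources used here) from paired strand-specific reads on mm10 with a RefSeq-based gene model of their own, without normalization. Where a symbol stood on more than 1 row, the row with the largest total was kept, which left out 0.0335% of counts. Muscle, sex and age came from the labels. Totals per library were 38583802 to 300089909 counts (median 72766895), of which 0.00128% fell on the 9 genes, so low levels are limited by counting. No pair of libraries was identical. Per the study, the libraries of a muscle came from as many animals, so p-values within a muscle measure the spread between mice. Muscles of 1 mouse could not be matched and were treated as separate.

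Each muscle and sex was fitted with edgeR 4.0.16 in R 4.3.3 (TMM scaling, filterByExpr by age, quasi-likelihood test) with each older age against 6 months. Differences between muscles within a sex, between sexes within a muscle, and their interactions with age at 27 months were fitted likewise over all ages. P-values were adjusted by Benjamini-Hochberg over all genes tested. The methods of the study use a 1.5-fold limit with Bonferroni adjustment. Bonferroni, limma-voom (limma 3.58.1), DESeq2 1.42.0, other scaling and filters, run of sample numbers, replicate block and left-out libraries were alternatives. The code was tested on simulated counts. Age curves used the 3 models of the study (a constant, a line and a logistic curve) and its BIC margin of 6, here on the logarithm of age. Age in months gave the same counts of members.

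The members and the gene lists were chosen with earlier results of these data known, so their counts are descriptions. All 9 members are named. Of other lists, genes named are at most the 3 with the largest change among those called at 27 months, or markers whose level is given. Most-like genes are the 10 with the highest correlation, of which 1 is not reported here. Of 14 immunoglobulin chain symbols, 1 was analysed and the others were not analysed here. Promoters came from RefSeq (GRCm38.p6) by symbol.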

Additional observations from a re-analysis of the deposited data

Results flagged for a closer look

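In the summed level of the 9 genes, 4 of 48 groups held a library that stood apart from its group by Dixon's 95% limit, which chance passes in about 1 group in 20. They were female soleus at 27 months (replicate 8, 6.31 CPM), female tibialis anterior at 21 months (replicate 0, 15.8 CPM), male gastrocnemius at 21 months (replicate 4, 9.97 CPM) and, at the low end, male diaphragm at 27 months (replicate 1, 1.33 CPM). The 3 high limb libraries also held T cell genes at 15.8, 9.95 and 12.8 CPM, where the medians of these muscles were 2.02 to 2.78. Their muscle fibre genes stood at 206205, 262913 and 269371 CPM, inside the range of their muscles. In the low diaphragm library the T cell genes were at 4.28 CPM and the macrophage genes at 262. Gene by gene, 28 of 300 pairs of gene and group were past the limit.

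The change of Tnfrsf17 from 6 to 27 months in females differed between muscles by the interaction test, by 4.25 between diaphragm and soleus and by 4.05 between gastrocnemius and soleus (log2). The soleus values behind both rest on 4 libraries with 3 to 12 counts. Tnfrsf17 failed the filter on low counts in both limb muscles alone and entered these tests only through the diaphragm libraries, so no difference is read from them.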

How the results depend on the processing

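The differences between diaphragm and limb muscles kept their direction and call under every alternative run for Cd79a, Cd79b, Ms4a1 and Cd22, and for the other 5 genes as tested through the diaphragm libraries. The counts of members called at any older age did not. In the order female gastrocnemius, soleus and tibialis anterior and male diaphragm, gastrocnemius and tibialis anterior, where 5, 2, 2, 5, 2 and 1 were called, Bonferroni adjustment left 0 in each and limma-voom 1, 0, 1, 1, 0 and 0. A minimum of 1 CPM gave 0 in each limb combination, but none of the called members passed that filter there, so this says nothing about their calls. An adjusted p limit of 0.01 left 0 in female soleus, male gastrocnemius and male tibialis anterior and 1 in female tibialis anterior and male diaphragm. DESeq2 called 4 in male gastrocnemius. The run as a term left 1 in female tibialis anterior and 3 in male diaphragm, and the larger run alone 0 in male diaphragm and male tibialis anterior. Leaving out a replicate number gave 0 to 0 in female diaphragm and male soleus, 2 to 5 in female gastrocnemius, 0 to 2 in female soleus, 1 to 3 in female tibialis anterior, 2 to 6 in male diaphragm, 1 to 3 in male gastrocnemius and 1 to 1 in male tibialis anterior. Without its highest library the female gastrocnemius had 2 and the male gastrocnemius 1 (these left-out libraries were chosen after seeing the data). Cd79b in female tibialis anterior at 21 months ran from -0.05 (without replicate 0) to 2.28 without a replicate number, and Cd22 in male gastrocnemius minus soleus to 0.05 with limma-voom.

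Between limb muscles, same-numbered libraries deviated together more than others. Median r was 0.35 against -0.04 in male soleus and tibialis anterior (41 of 51 pairs over 0.1). It was 0.16 against -0.02 in female gastrocnemius and soleus, the lowest limb pair. Between the diaphragm and a limb muscle it was -0.01 to 0.05. The limb comparisons may thus hold libraries of the same mouse treated as separate. The labels do not say what the number stands for, so in the main fits it was taken as a name only. With it as a replicate block 1 member was called in female soleus, 1 in female tibialis anterior, 1 in male diaphragm and 0 in male gastrocnemius with age, 0 between the sexes in the diaphragm, and 1, 1, 2, 1 and 1 in female gastrocnemius minus soleus, female soleus minus tibialis anterior and male gastrocnemius minus soleus, gastrocnemius minus tibialis anterior and soleus minus tibialis anterior. Between the sexes in the diaphragm, where 1 was called, Bonferroni adjustment and limma-voom left 0 and the run as a term 2. In the soleus 1 was called without the libraries rich in liver or thymocyte transcripts. Among limb pairs, relative log expression called 1 in female soleus minus tibialis anterior and 1 in male gastrocnemius minus tibialis anterior. In male gastrocnemius minus soleus limma-voom called 2, Bonferroni 0 and the fit without those libraries 2. In male soleus minus tibialis anterior limma-voom called 3, the run as a term 1 and the fit without those libraries 2. Without the 8 soleus libraries with the fewest genes detected (chosen after seeing the data) 2, 1 and 1 were called in male gastrocnemius minus soleus, gastrocnemius minus tibialis anterior and soleus minus tibialis anterior, and the other counts with soleus libraries were the same. The Tnfrsf17 interactions had 0 calls with Bonferroni adjustment and with limma-voom. The causes of these changes were not tested. At limb medians of 1 to 11 counts a gene, small changes were not detectable at this depth.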

Other observations

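Jchain, which encodes the joining chain of secreted IgA and IgM, rose with age in limb muscles in which most of the 9 genes were not called at 27 months. In female gastrocnemius it went from 0.117, 0.198 and 0.503 CPM (lowest, median and highest) at 6 months to 0.382, 1.79 and 4.11 at 27 months (3.07 ± 0.67, adjusted p = 0.000413 by edgeR), with 9 of 10 libraries above the 6-month maximum. The change of Jchain at 27 months was 2.59 ± 0.53 (0.000223) in male gastrocnemius, 3.09 ± 0.90 (0.0091) in female and 2.78 ± 0.66 (0.00201) in male tibialis anterior. In the diaphragm, where its median over all libraries was 26.4 CPM, it was not called (1.55 ± 1.05, 0.559 in females and 1.75 ± 0.91, 0.218 in males). Jchain was also not called at 27 months in the soleus (1.20 ± 0.95, 0.407 in females and 2.93 ± 1.26, 0.228 in males). Jchain is 1 of 18 further plasma cell genes in the tables, and of the 15 to 17 tested at 27 months 0 to 2 were called higher in any muscle and sex. Cxcl13, the chemokine that draws B cells through CXCR5, rose at 27 months in 5 of 6 limb combinations. In female tibialis anterior it went from 0.0165, 0.14 and 0.195 to 0.287, 0.521 and 2.6 CPM (2.58 ± 0.51, 0.000145), with 10 of 10 libraries above the 6-month maximum. In male soleus Cxcl13 rose by 2.32 ± 0.54 (0.00705), in male tibialis anterior by 1.89 ± 0.35 (9.81e-05), in male gastrocnemius by 1.37 ± 0.36 (0.00413) and in female gastrocnemius by 1.01 ± 0.34 (0.0188), and it was not called in female soleus (0.51 ± 0.52, 0.539) or in the diaphragm of either sex. Both genes kept these calls when 1 library at 27 months was left out, replicate 0 in female gastrocnemius and replicate 9 in the tibialis anterior of each sex. In female tibialis anterior replicate 9 was not the library with the highest summed level of the 9 genes, which was replicate 3 (2.59 CPM).

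In the tibialis anterior of females at 27 months, immune genes of several kinds were called higher: 5 of 8 T cell, 7 of 8 pan-leukocyte, 6 of 12 macrophage, 4 of 10 further B cell surface genes and 4 of 10 B cell transcription factors, beside 1 of 4 members tested (Cd22), where 7.01% of all genes were called in either direction. All 8 liver genes (median log2 change 3.49) and all 6 proliferation genes (1.77) were called higher in the same comparison.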
